A study of Danio rerio with 12 samples.

Results

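Zebrafish embryos exposed to GW9662 were compared with embryos exposed to the solvent DMSO, gene by gene, over the 14433 genes of 31901 listed that had at least 1 FPKM (fragments per kilobase of gene per 1000000 fragments) in at least 4 of the 12 libraries of the series. All embryos were labelled wildtype and taken whole, so each value averages over every tissue. Embryos were kept from 6 to 24 hours post-fertilisation (hpf) in 0.1% DMSO, in 75 uM GW9662 or in 25 uM rosiglitazone, with 4 libraries in each group. The rosiglitazone libraries counted in that filter and entered the fit to help estimate the spread. They are compared with the other groups only for some genes, at the end.

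The titles, the library names and the exposure protocol assign the libraries as used here, whereas the treatment field gives TBBPA, another compound, where the titles give GW9662, and DMSO where they give rosiglitazone. A batch tag gives each library an hour of its own, 24 to 27 hpf for the DMSO libraries and 28 to 31 hpf for the GW9662 libraries. Whether these hours are stages or only running numbers is not stated, and they cannot be told apart from the treatment. The labels do not say whether the libraries of a group came from separate clutches, so p-values measure only the spread between libraries.

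GW9662 irreversibly inhibits PPAR gamma, a nuclear receptor that binds fatty acid-derived ligands and, paired with the retinoid X receptor, switches on genes of fat storage and lipid handling. GW9662 is an electrophile and bonds to a cysteine in the receptor's ligand pocket. During the hours of exposure a zebrafish embryo completes gastrulation, forms its somites, patterns its brain and begins to differentiate muscle, blood and the first neurons. The comparison asks which genes of the whole embryo differ after exposure to the inhibitor, and the account below goes to gene groups outside the heat shock, redox, muscle and lens genes.

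Depth ran from 12772174 to 22746500 fragments per library. The call threshold throughout was an adjusted p below 0.05 (limma on log2(FPKM + 0.5), Benjamini-Hochberg adjustment over all 14433 genes). By this rule 5196 genes, or 36%, were called, 2735 of them higher in GW9662 (18.9% of those tested) and 2461 lower (17.1%). Each count of list or family members called below is to be read beside these shares. Changes of at least 2-fold were fewer, with 303 genes higher (2.1%) and 265 lower (1.84%). The median log2 change over all genes was 0.01, with quartiles of -0.18 and 0.21, and the GW9662 and DMSO libraries did not overlap for 5335 genes (37%). The share called rose with the level of the gene in DMSO, from 25.5% in the lowest quartile by mean FPKM of the DMSO libraries to 46.9% in the highest.

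The steepest rises in the whole table sat side by side on chromosome 3, in a run of ferritin heavy chain-like genes. Ferritin heavy chains oxidise iron and form, with light chains, the hollow protein shell in which cells store it. The run held 8 neighbouring genes, listed at chr3:32099507-32140446 in the coordinates of the deposited table, for which no genome build is stated. All 8 genes tested in that stretch were called higher. Reference names exist for 5 of the 8: fthl27 (listed as zgc:92066), fthl28 (zgc:198419), fthl29 (zgc:194125), fthl30 (zgc:173593) and fthl31 (zgc:109934). The other 3 are listed as a second zgc:92066, a second zgc:109934 and BX511021.1, a clone name that the annotation used here assigns to no family. The run was picked out after its values were seen.

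The second zgc:92066 (ENSDARG00000116586) had 1.65, 1.57, 1.36 and 1.5 FPKM in the DMSO libraries and 432, 334, 326 and 301 FPKM in the GW9662 libraries. The lowest GW9662 library stood far above the highest DMSO library, and the log2 difference was 7.42 ± 0.23 (log2, SE; adjusted p = 9.6e-11), the largest of all genes tested. The change rests on 28 fragments over the DMSO libraries against 6994 over the GW9662 libraries. BX511021.1 gave 1.08, 0.702, 0.567 and 0.783 FPKM in the DMSO libraries and 80.3, 64.7, 72.3 and 68.5 FPKM in the GW9662 libraries. Here too the groups were far apart, with a rise of 5.82 ± 0.18 (log2, SE; adjusted p = 9.6e-11). The gene with the highest level in the run, fthl27 (zgc:92066, ENSDARG00000031776), had 123, 119, 104 and 112 FPKM in the DMSO libraries and 416, 386, 402 and 429 FPKM in the GW9662 libraries. It was thus well expressed in every DMSO library, and its rise was smaller than those of its neighbours, 1.83 ± 0.08 (log2, SE; adjusted p = 1.3e-09). The fthl31 gene (zgc:109934, ENSDARG00000094210) went from 13.2 ± 1.66 to 114 ± 5.71 FPKM (SD, n = 4), a log2 rise of 3.07, adjusted p = 1.8e-09, and fthl28 (zgc:198419) from 1.89 ± 0.372 to 31 ± 4.67 FPKM (SD, n = 4), a log2 rise of 3.72, adjusted p = 5.9e-10. Lower still, fthl30 (zgc:173593) and fthl29 (zgc:194125) had 7 and 6 fragments over the 4 DMSO libraries and 159 and 276 over the GW9662 libraries.

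The second zgc:109934 (ENSDARG00000113150) had no fragment in any DMSO library and 104 over the GW9662 libraries, at least 30.9-fold higher relative to library size if 3 fragments are taken as the floor of the DMSO group. It was the single gene below 0.1 FPKM in every library of one group and at 1 FPKM or more in every library of the other, and no gene was at such a level in DMSO and lost in GW9662. Copies of such genes resemble one another, and how fragments shared between copies were assigned is not stated, so the split between neighbours is uncertain. The sum over the run does not depend on that split within it. Scaled to library size (per 1000000 fragments) it was 191 in DMSO and 891 in GW9662, 4.66-fold higher. The plot of the run shows all 8 genes by library.

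**Figure D1:**
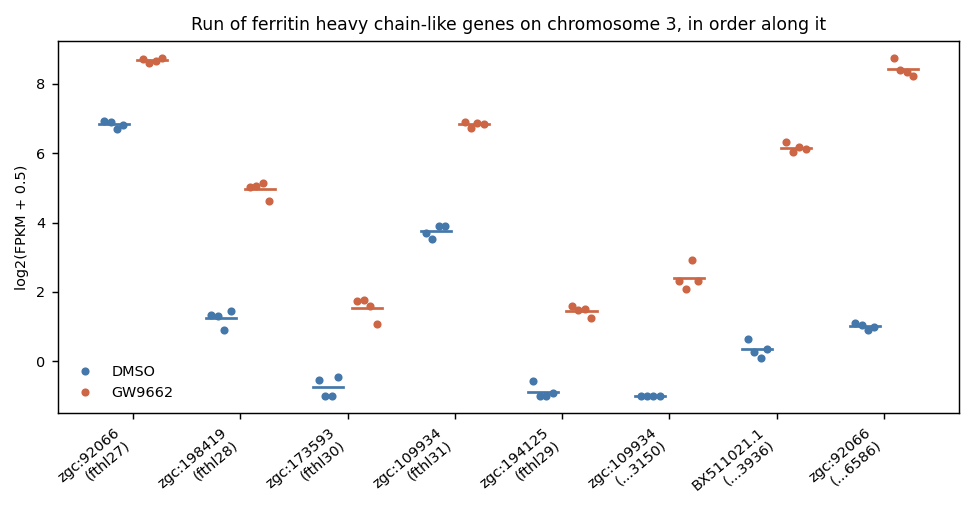
Level of the 8 genes of the ferritin heavy chain-like run on chromosome 3 in each DMSO and GW9662 library (points, n = 4 per group) with the group mean (line), on the log2(FPKM + 0.5) scale, in their order along the chromosome. The groups do not overlap for any of the 8 genes, and the copy at the right end went from a mean of 1.52 to 348 FPKM.

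Other iron genes moved less. The ubiquitous ferritin chain gene fth1a, on another chromosome, had 843, 825, 825 and 814 FPKM in the DMSO libraries and 980.1, 1013, 1014 and 1089 FPKM in the GW9662 libraries. All GW9662 libraries were above all DMSO libraries, by only 0.31 ± 0.05 (log2, SE; adjusted p = 0.00055). The related fth1b went the other way, from 6.77 ± 1.17 to 2.16 ± 0.651 FPKM (SD, n = 4), a log2 change of -1.47, adjusted p = 1.4e-05. Among 35 tested genes of iron, heme and iron-sulfur clusters, 12 were higher and 2 lower, and the median log2 change was 0.19. The heme-degrading enzyme gene hmox1a rose from 38.5 ± 3.04 to 86.2 ± 8.48 FPKM (SD, n = 4) (log2 change 1.15, adjusted p = 2.7e-07). The iron exporter ferroportin, slc40a1, rose from 31.7 ± 1.54 to 53.7 ± 2.16 FPKM (SD, n = 4) (log2 change 0.75, adjusted p = 1.4e-07), and the plasma iron carrier transferrin, tfa, from 354 ± 14.8 to 658 ± 34.7 FPKM (SD, n = 4) (log2 change 0.90, adjusted p = 2e-07). The heme synthesis genes alas1, urod and fech were also called higher, with log2 changes of 0.36, 0.35 and 0.39. The fech call was lost with no filter on low values and without DMSO replicate 1, 2 or 3 or GW9662 replicate 1 or 3, with limma adjusted p from 0.0521 to 0.0812. Apart from fth1b, the copper ferroxidase gene cp was the only member of the list called lower, with a log2 change of -1.04, adjusted p = 1.3e-06.

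Runs of neighbouring genes that changed together were then sought across the genome, as at least 3 called genes changed at least 2-fold in the same direction with gaps under 100 kb. There were 9 such runs, 6 higher and 3 lower. Apart from the ferritin-like run, the rising runs were the hsp70.1 to hsp70.3 genes, a chromosome 14 run that starts with irg1l, 2 stretches with histone genes on chromosome 25 and a stretch of clone-named genes on chromosome 4 whose first, CT583728.1, is annotated as ribosomal RNA. The falling runs were the apoa4b genes, the her4 genes and the fast myosin genes that begin with myhz2.

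The chromosome 14 run is 34.0 kb long and holds irg1l, a relative of the gene for the enzyme that makes itaconate from cis-aconitate, and 3 genes known only by clone names. No other tested gene lay within it. irg1l had 0.756, 1.42, 1.33 and 0.98 FPKM in the DMSO libraries and 24.8, 20.9, 22.8 and 23.9 FPKM in the GW9662 libraries. Its groups were widely apart, and the rise was 3.88 ± 0.12 (log2, SE; adjusted p = 1.1e-10). The gene at the other end, si:ch211-153b23.5, had 7.38, 6.61, 8.8 and 8.84 FPKM in the DMSO libraries and 113, 90.8, 94.8 and 97.2 FPKM in the GW9662 libraries. It reached the highest FPKM of the run in GW9662 and rose by 3.57 ± 0.10 (log2, SE; adjusted p = 4.4e-11). Between them, si:ch211-153b23.4 and si:ch211-153b23.3 rose by 3.15 and 3.30 (log2).

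The stretches on chromosome 25 held 6 rising genes of 20 tested, hist1h2a2 among them, and 4 of 8, with hist1h2a1 and HIST1H4B, all at low levels. The rising genes gave 131 and 105 fragments over the DMSO libraries and 423 and 449 over the GW9662 libraries. Their sequences were not compared, and how fragments shared between similar copies were assigned is not stated, so the split between these genes is uncertain. HIST1H4B, a histone H4 gene, had 0.921, 0.4, 0 and 0.168 FPKM in the DMSO libraries and 4, 2.58, 4.7 and 3.39 FPKM in the GW9662 libraries. A DMSO library without a fragment lies among these values, and the rise was 2.34 ± 0.31 (log2, SE; adjusted p = 7e-05). Among 47 tested genes for histone variants, histone chaperones and high-mobility-group (HMG) proteins, 2 were higher and 18 lower, with a median log2 change of -0.15. The DNA damage-associated variant h2afx fell from 50.2 ± 1.67 to 33.1 ± 5.68 FPKM (SD, n = 4) (log2 change -0.61, limma adjusted p = 0.0016). Its copy h2afx1 fell by 0.75 and the histone gene hist2h2l by 1.25 on the log2 scale. The chaperone genes asf1ba, asf1bb and chaf1b, which load histones behind replication forks, fell by 0.36, 0.37 and 0.44.

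Genes of small-molecule metabolism made up the next group. Vitamin B12 carriers rose: si:ch211-117m20.5, which the reference names give as tcnbb, had 6.01, 4.46, 5.78 and 4.51 FPKM in the DMSO libraries and 140.4, 119, 137 and 128 FPKM in the GW9662 libraries. No DMSO library came near the GW9662 libraries, and the rise of 4.54 ± 0.13 (log2, SE; adjusted p = 5.3e-11) was among the largest in the table. The related tcn2 rose from 12.2 ± 1.59 to 24.7 ± 1.36 FPKM (SD, n = 4) (log2 change 1.0, adjusted p = 1.1e-06). Hydrogen sulfide is broken down in mitochondria by a chain of enzymes that begins with sqor, which passes its electrons to ubiquinone, and continues with the persulfide dioxygenase ethe1. The ethe1 gene had 4.37, 3.27, 4.78 and 3.3 FPKM in the DMSO libraries and 22.1, 23.9, 25.4 and 26.9 FPKM in the GW9662 libraries. Its GW9662 libraries were all several times higher, 2.51 ± 0.11 (log2, SE; adjusted p = 2.9e-09), and sqor rose from 8.15 ± 0.708 to 24.3 ± 1.93 FPKM (SD, n = 4) (log2 change 1.52, adjusted p = 1.5e-08). Both were chosen after their values were seen, as were the vitamin carriers.

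Purines and pyrimidines are built stepwise from amino acids and one-carbon units, and surplus purine is oxidised to urate, which fish degrade further. Of 42 tested genes, 16 were higher and 6 lower, with a median log2 change of 0.05. Called genes for the building steps that rose included the first purine step ppat by 0.30, gart by 0.59, pfas by 0.53, paics by 0.58 and atic by 0.35 (log2). The pyrimidine genes cad and umps rose by 0.77 and 0.50 (log2). The nucleoside diphosphate kinase gene nme2b.2 went the other way, from 203 ± 9.66 to 94.7 ± 10.3 FPKM (SD, n = 4) (log2 change -1.10, limma adjusted p = 9.8e-06). The multi-step pyrimidine enzyme gene cad had 84.3, 91.1, 91.5 and 81.1 FPKM in the DMSO libraries and 151, 153, 155 and 136 FPKM in the GW9662 libraries. The groups did not overlap. Salvage genes were among those lower, with dck down by 0.67 (log2), tk1 by 0.40 (log2) and the purine nucleoside phosphorylase gene pnp4a by 1.16 (log2), while its relatives pnp5a and pnp5b rose by 0.80 and 0.52. At the urate end, xdh, which makes urate, fell from 1.21 ± 0.134 to 0.363 ± 0.0481 FPKM (SD, n = 4) (log2 change -0.98, adjusted p = 0.0001), while uox, which oxidises it, rose from 4.2 ± 0.666 to 13.4 ± 1.36 FPKM (SD, n = 4) (log2 change 1.58, adjusted p = 9.3e-08). The next enzyme, urahb, in no list and chosen after its values were seen, had 2.2, 3.95, 1.78 and 3.19 FPKM in the DMSO libraries and 21.9, 16, 15.3 and 10.8 FPKM in the GW9662 libraries. All GW9662 libraries were higher, by 2.34 ± 0.24 (log2, SE; adjusted p = 6.2e-06).

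NADP is made from NAD by NAD kinase and is reduced by the pentose phosphate route. The NAD kinase gene nadka (ENSDARG00000098313) had 15.1, 13.6, 13.3 and 11.6 FPKM in the DMSO libraries and 34.9, 31.6, 37.1 and 28.7 FPKM in the GW9662 libraries. It rose by 1.27 ± 0.10 (log2, SE; adjusted p = 5.7e-07), and a second entry of the same symbol (ENSDARG00000006577), which may hold part of the same gene, rose by 1.40. Over the 15 tested NADPH supply genes, 6 were higher and 3 lower, with a median log2 change of -0.05. The pentose phosphate genes tktb, rpia, pgd and taldo1 rose by 0.89, 0.63, 0.53 and 0.51, and the malic enzyme me3 and the lactonase pgls fell by 0.56 and 0.42. Carbonyl- and aldehyde-handling enzymes were more often lower, 14 against 6 of 38, with a median of -0.10. The carbonyl reductase gene cbr1l rose from 39.3 ± 3.72 to 88.4 ± 7.63 FPKM (SD, n = 4) (log2 change 1.16, adjusted p = 6.2e-08). The formaldehyde dehydrogenase gene adh5 fell by 0.67 (log2), and the aldehyde dehydrogenase family genes aldh6a1, aldh7a1, aldh5a1, aldh16a1, aldh2.1 and aldh18a1 had log2 changes of -0.58 to -0.30. The related aldh3b1 rose by 0.61.

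Polyamines are small cations made from ornithine. The spermine oxidase gene smox had 10.3, 9.88, 10.2 and 11.3 FPKM in the DMSO libraries and 26.7, 25.6, 26.4 and 25.4 FPKM in the GW9662 libraries. The groups were apart by 1.28 ± 0.05 (log2, SE; adjusted p = 1.3e-09). The rate-limiting synthesis gene odc1 rose by 0.64 and its inhibitor, the antizyme gene oaz1b, fell by 0.41. Of the 4 tested acetyltransferase genes of the list, sat1a.2 rose by 0.81 and sat1b fell by 1.11, while sat1a.1 and sat2b did not pass the test. Without DMSO replicate 2 the sat1a.1 level was called lower (limma adjusted p = 0.0167), and without DMSO replicate 4 that of sat2b was called higher (adjusted p = 0.0405). In the folate and methionine cycles 11 genes were higher and 9 lower of 32, with gldc up by 0.64, bhmt up by 0.58 and ftcd down by 0.78. The thiopurine methyltransferase gene tpmt.1 (ENSDARG00000055974), in no list and chosen after its values were seen, had 4.31, 3.69, 4.08 and 5.03 FPKM in the DMSO libraries and 26.8, 26.4, 26.1 and 28.6 FPKM in the GW9662 libraries. Its groups were widely apart, 2.53 ± 0.08 (log2, SE; adjusted p = 1.4e-10).

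Sphingolipids, the ceramide-based lipids of membranes, had 17 of 32 tested genes higher and 3 lower, with a median log2 change of 0.27 against 0.01 over all genes. Each called rise was below 2-fold. Genes of synthesis rose, among them kdsr by 0.51 and sptlc2b by 0.44. Among genes of breakdown, the ceramidase gene acer1 rose by 0.84 (log2), while another ceramidase gene, asah1a, fell by 0.41 (log2). The lysosomal sphingomyelinase gene smpd1 had 6.31, 6.3, 5.47 and 5.29 FPKM in the DMSO libraries and 10.3, 9.56, 9.34 and 9.66 FPKM in the GW9662 libraries. Its rise was 0.69 ± 0.07 (log2, SE; adjusted p = 4.6e-06). The ceramide synthase gene cers1 fell by 0.86 (log2). Among 19 eicosanoid genes, 8 were higher and 2 lower, with a median of 0.32. The inducible cyclooxygenase gene ptgs2a, which makes the precursor of prostaglandins, had 12.2, 11.7, 12.6 and 12.4 FPKM in the DMSO libraries and 29.6, 28.8, 29.8 and 29.5 FPKM in the GW9662 libraries. Its spread within groups was small beside the rise of 1.24 ± 0.06 (log2, SE; adjusted p = 1.2e-08). Its copy ptgs2b rose from 0.877 ± 0.209 to 3.98 ± 0.786 FPKM (SD, n = 4) (log2 change 1.70, adjusted p = 1.6e-06) and the constitutive enzyme gene ptgs1 from 8.08 ± 0.406 to 17 ± 0.715 FPKM (SD, n = 4) (log2 change 1.03, adjusted p = 2.6e-08). The lysosomal phospholipase gene pla2g15 rose by 1.14 (log2).

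The plot of all lists gives the share of members called in each direction.

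**Figure D2:**
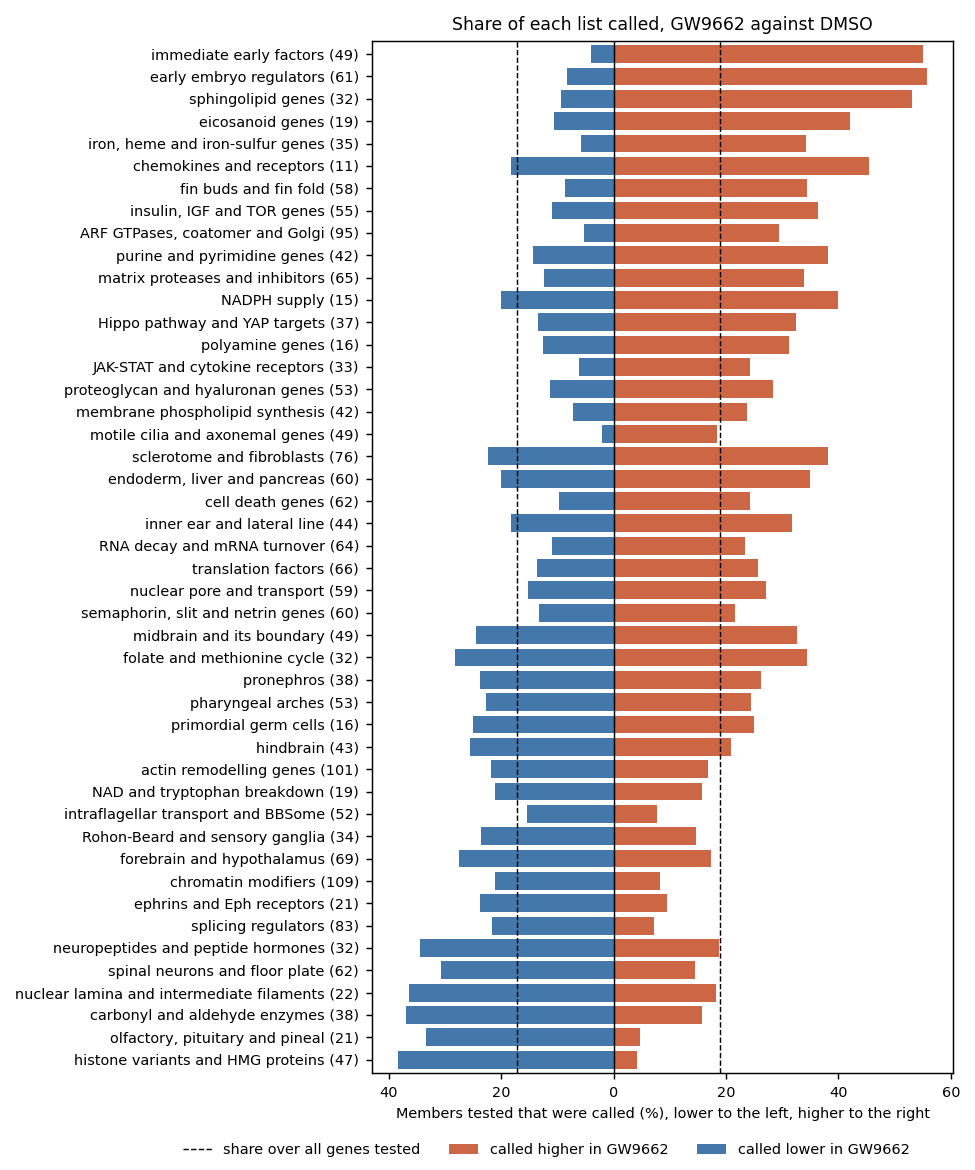
Share of the tested members of each of 46 gene lists called higher (right) or lower (left) in GW9662, with the number tested in brackets and the shares over all 14433 genes as dashed lines (18.9% and 17.1%). Immediate early factors and early embryo regulators had 55.1% and 55.7% of members higher, and histone variants and HMG proteins had 38.3% lower.

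Immediate early genes are transcription factors and feedback genes that cells switch on within minutes of a growth, wound or stress signal, and many encode the Fos and Jun subunits of the AP-1 factor. Of 49 tested, 27 were higher and 2 lower, with a median log2 change of 0.37. The Fos-family gene fosl1a had 0.574, 0.639, 0.34 and 0.627 FPKM in the DMSO libraries and 7.55, 5.45, 6.12 and 5.06 FPKM in the GW9662 libraries. No DMSO library reached 1 FPKM and no GW9662 library fell below 5, a rise of 2.64 ± 0.15 (log2, SE; adjusted p = 2.2e-08). For fosab the values were 0.44, 0.882, 0.579 and 1.14 FPKM in the DMSO libraries and 7.83, 5.27, 6.96 and 5.92 FPKM in the GW9662 libraries. Those groups were also apart, by 2.49 ± 0.20 (log2, SE; adjusted p = 5.2e-07). The partner genes rose with them, junbb from 20 ± 2.09 to 47.7 ± 3.2 FPKM (SD, n = 4) (log2 change 1.24, adjusted p = 2.4e-07), junba by 1.14 and jun by 0.66. Of the same kind, ier2a, ier2b and egr1 rose by 0.85, 0.76 and 0.47. The egr1 call was lost without DMSO replicate 2 or 3 or GW9662 replicate 1 or 3, with limma adjusted p from 0.0537 to 0.0916. Lower were the Myc antagonist gene mxd3, by 0.50 (log2), and arid5b, by 0.27 (log2), a call lost on the TPM scale and without DMSO replicate 2 or 4 or GW9662 replicate 2 or 3, with limma adjusted p from 0.0503 to 0.0672.

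Extracellular proteases and their inhibitors followed a like direction, with 22 of 65 tested genes higher, 8 lower and a median of 0.10. The aminopeptidase N gene anpepb had 0.422, 0.287, 0.232 and 0.32 FPKM in the DMSO libraries and 13.1, 12.7, 14.7 and 13.7 FPKM in the GW9662 libraries. It was near the lower limit in every DMSO library and rose by 4.11 ± 0.13 (log2, SE; adjusted p = 8.3e-11). The gelatinase gene mmp9, which cuts denatured collagen, had 1.65, 1.44, 1.69 and 1.62 FPKM in the DMSO libraries and 8.17, 7.39, 7.3 and 7.32 FPKM in the GW9662 libraries. The groups were clearly separate, 1.94 ± 0.11 (log2, SE; adjusted p = 1.7e-08). The membrane serine protease gene tmprss13a rose from 1.05 ± 0.272 to 4.8 ± 0.327 FPKM (SD, n = 4) (log2 change 1.79, adjusted p = 3.3e-07). The aminopeptidase A gene enpep went the other way, from 1.77 ± 0.396 to 0.242 ± 0.0752 FPKM (SD, n = 4) (log2 change -1.60, adjusted p = 1.4e-06). The neutrophil-attracting chemokine gene cxcl18b rose from 0.334 ± 0.0788 to 1.84 ± 0.82 FPKM (SD, n = 4) (log2 change 1.43, adjusted p = 0.00022), and the EGF-receptor ligand gene hbegfa, in no list and chosen after its values were seen, from 8.77 ± 0.313 to 26.1 ± 1.12 FPKM (SD, n = 4) (log2 change 1.52, adjusted p = 2.7e-10). The hydrogen peroxide-making dual oxidase gene duox, chosen like its neighbour after values were seen, had 12.6, 12.4, 10.8 and 11.7 FPKM in the DMSO libraries and 3.47, 4.13, 3.74 and 3.56 FPKM in the GW9662 libraries. All GW9662 libraries were lower, by 1.55 (log2). The neighbour listed as duox2, which the reference names give as the maturation factor DUOXA1, fell from 4.62 ± 0.699 to 0.666 ± 0.211 FPKM (SD, n = 4) (log2 change -2.15, adjusted p = 1.4e-07).

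**Figure D3:**
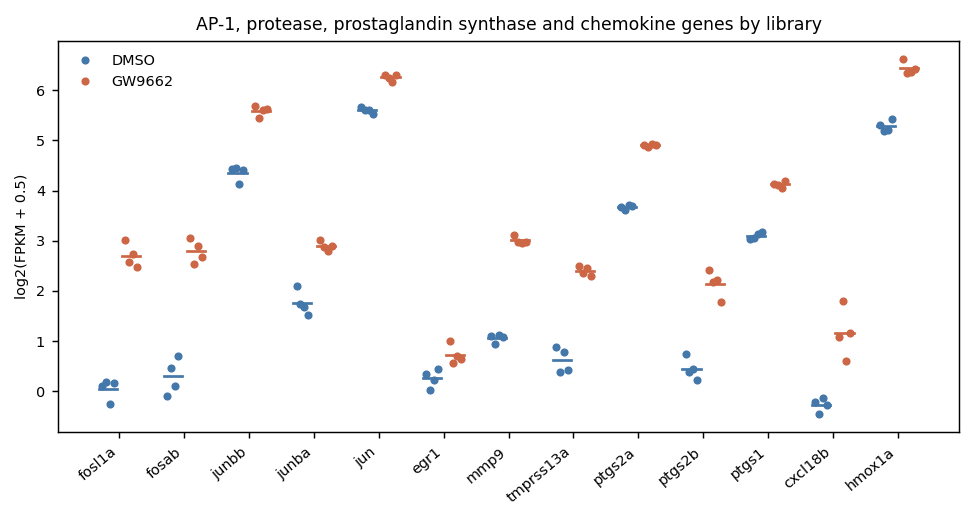
Level of immediate early and AP-1 genes, protease genes, cyclooxygenase genes, the chemokine gene cxcl18b and hmox1a in each DMSO and GW9662 library (points, n = 4 per group) with group means (lines), on the log2(FPKM + 0.5) scale. The mean of fosl1a went from 0.545 to 6.04 FPKM and that of mmp9 from 1.6 to 7.54 FPKM, and the groups do not overlap for any gene shown.

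Signalling lists moved in part. Targets and regulators of Yap, a transcriptional co-activator that the Hippo kinases hold in check, had 12 of 37 genes higher and 5 lower, with a median of 0.19. The angiomotin-like gene amotl2b had 9.84, 8.96, 8.75 and 8.83 FPKM in the DMSO libraries and 20.9, 19.9, 20.3 and 19.2 FPKM in the GW9662 libraries. Its rise was 1.10 ± 0.06 (log2, SE; adjusted p = 9.9e-09), and the classical Yap targets ctgfa, ctgfb and cyr61 rose by 0.50, 0.79 and 0.54. Members of the Yap list called lower included wisp3 and vgll2b, by 0.47 and 0.34 (log2). In the insulin, IGF and TOR list 20 of 55 genes were higher and 6 lower, with a median of 0.15. The binding protein gene igfbp1b, which holds IGF in check, rose from 0.385 ± 0.0903 to 1.85 ± 0.35 FPKM (SD, n = 4) (log2 change 1.40, adjusted p = 5e-05), the IGF2 clearance receptor gene igf2r from 1.18 ± 0.237 to 3.44 ± 0.594 FPKM (SD, n = 4) (log2 change 1.23, adjusted p = 2e-05), and the Ragulator genes lamtor1, lamtor2 and lamtor3, which tether TOR to lysosomes, by 0.59, 0.23 and 0.45. Another binding protein, igfbp2b, fell by 1.04 (log2). The adenosine receptor genes adora2ab and adora2b, outside the lists and chosen after their values were seen, rose by 1.61 and 1.34. Cell death genes included 15 higher and 6 lower of 62, or 33.9% called, near the 36% over all genes. The ferroptosis suppressor gene aifm2 rose from 6.8 ± 0.73 to 16.7 ± 0.602 FPKM (SD, n = 4) (log2 change 1.24, adjusted p = 4.3e-08), casp8 and casp3b rose by 0.63 and 0.73, and the inflammatory caspase gene caspa fell by 1.01.

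Inside the cell, genes of the ARF GTPases, the COPI coat and the Golgi had 28 of 95 higher and 5 lower, with a median of 0.12. Of these genes 34.7% were called, near the 36% over all genes, with 29.5% higher and 5.3% lower beside 18.9% and 17.1%. arf4b, a small GTPase gene of that pathway, had the largest change among them, with 0.325, 0.176, 0.285 and 0.345 FPKM in the DMSO libraries and 26.6, 19.4, 17.9 and 13.9 FPKM in the GW9662 libraries. It was close to absent in DMSO, where it had 20 fragments over 4 libraries, and rose by 4.64 ± 0.19 (log2, SE; adjusted p = 9.3e-10). The transport SNARE gene sec22ba rose from 13.6 ± 1.24 to 27.6 ± 3.04 FPKM (SD, n = 4) (log2 change 0.99, adjusted p = 5.4e-07) and the coat gene copa from 83.6 ± 1.39 to 119.7 ± 5.82 FPKM (SD, n = 4) (log2 change 0.51, adjusted p = 5.6e-07). Among 59 tested genes of the nuclear pore and of transport through it, 16 were higher and 9 lower. That is 42.4% called beside the 36% over all genes. Importin and exportin genes were among the rises, with kpna4 from 57.9 ± 1.64 to 95.5 ± 2.7 FPKM (SD, n = 4) (log2 change 0.72, adjusted p = 1.5e-08), kpna1 by 0.56, kpna3 by 0.46 and xpo1a and xpo1b each by 0.62, while the exportin gene cse1l fell by 0.27. Of the pore proteins, nup98 rose by 0.34 and nup58 fell by 0.22.

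Chromatin and splicing factors had more falls than rises. Yet only 29.4% of 109 chromatin modifiers and 28.9% of 83 splicing regulators were called, below the 36% over all genes. The shares lower were 21.1% and 21.7%, beside 17.1% of all genes. Among chromatin modifiers 9 were higher and 23 lower, and among splicing regulators 6 and 18, most of them by small amounts. The Polycomb gene cbx7a was an exception, with 0.557, 0.938, 0.624 and 0.912 FPKM in the DMSO libraries and 3.57, 2.4, 3.05 and 3.31 FPKM in the GW9662 libraries. Its rise was 1.51 ± 0.16 (log2, SE; adjusted p = 6.8e-06), and a second Polycomb gene, bmi1a, rose by 0.62 while its copy bmi1b fell by 0.29. Actin genes had 17 higher and 22 lower of 101, or 38.6% called, near the 36% over all genes. The muscle cofilin gene cfl2 fell from 33.2 ± 4.21 to 15.1 ± 1.6 FPKM (SD, n = 4) (log2 change -1.11, adjusted p = 1.5e-06). Caveolae, membrane pits abundant in muscle and fibroblasts, had 6 of 8 tested cav and cavin genes lower, beside 17.1% of all genes, and 0 higher, a family picked after its values were seen: cavin4a fell from 50.7 ± 3.76 to 21.3 ± 1.85 FPKM (SD, n = 4) (log2 change -1.24, adjusted p = 8.4e-07), cavin4b by 1.22, cavin1a by 0.74, cav2 by 0.55, cav1 by 0.53 and cav3 by 0.46. Motile cilia genes had 9 higher of 49, or 18.4% beside the 18.9% over all genes, and 1 lower, and the master factor foxj1a rose by 0.45 (log2). Intraflagellar transport genes had 4 higher and 8 lower of 52, or 23.1% called beside the 36% over all genes.

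Marker genes of tissues and stages differed in several lists, and in whole embryos fewer cells of a type and less RNA per cell cannot be told apart. The early embryo list holds regulators of gastrulation and axis formation, most of which decline as the embryo matures. Of 61 tested, 34 were higher and 5 lower, with a median log2 change of 0.23. isg15 and ldha, of the interferon response and of glycolysis, are in this list without being such regulators. The Nodal co-receptor gene tdgf1 had 7.51, 6.21, 6.3 and 6.43 FPKM in the DMSO libraries and 18.7, 16, 15.6 and 17.1 FPKM in the GW9662 libraries. The groups were separate, 1.29 ± 0.08 (log2, SE; adjusted p = 3.5e-08). The pluripotency-related factor gene pou5f3 had 2.13, 1.36, 1.5 and 1.54 FPKM in the DMSO libraries and 3.77, 3.14, 3.71 and 4.34 FPKM in the GW9662 libraries. Its rise was 1.0 ± 0.16 (log2, SE; adjusted p = 0.00036). The posterior factor gene cdx4 rose from 9.35 ± 1.87 to 22.5 ± 1.74 FPKM (SD, n = 4) (log2 change 1.24, adjusted p = 3.1e-06), the Nodal antagonist gene lft2 from 4.11 ± 0.674 to 9.72 ± 1.73 FPKM (SD, n = 4) (log2 change 1.14, adjusted p = 1.6e-05), the yolk syncytial factor gene mxtx1 by 1.45, and the ventral repressor genes vent, ved and vox by 0.98, 0.78 and 0.66. The DMSO and GW9662 libraries also differ in the hour of the batch tag, whose part in these stage-dependent genes was not tested.

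Neural markers were lower in places. In the forebrain and hypothalamus list 19 were lower and 12 higher of 69, with a median of -0.08. These are 27.5% and 17.4%, beside 17.1% and 18.9% of all genes. The eye field and pituitary factor gene six6b had 8.4, 7.74, 8.06 and 7.42 FPKM in the DMSO libraries and 2.94, 2.91, 2.83 and 2.19 FPKM in the GW9662 libraries. It was the largest fall of the list, -1.39 ± 0.09 (log2, SE; adjusted p = 7.7e-08). The telencephalon genes foxg1b and foxg1d fell by 0.79 and 0.88, and the hypothalamic genes nkx2.1, nkx2.4a, nkx2.4b and otpa by 0.48, 0.41, 0.54 and 0.61. Spinal neuron and floor plate genes had 19 lower and 9 higher of 62, with a median of -0.12. The members that fell included the GABA synthesis genes gad1b and gad2, by 0.63 and 0.56, the GABA and glycine loader gene slc32a1 by 0.73, the glycine transporter gene slc6a9 by 0.65, the acetylcholine loader gene slc18a3a by 0.50 and the acetylcholine-splitting enzyme gene ache by 0.81. The higher members tal1, gata2a and pax2a, with rises of 0.36 to 0.55, are active in blood or kidney precursors as well.

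The hindbrain list was divided, 9 higher and 11 lower of 43, or 20.9% and 25.6% beside 18.9% and 17.1% of all genes. The rhombomere factor gene egr2b had 3.56, 4.58, 4.62 and 4.03 FPKM in the DMSO libraries and 8.2, 7.74, 7.46 and 7.92 FPKM in the GW9662 libraries. It rose by 0.83 ± 0.09 (log2, SE; adjusted p = 1.1e-05), and the related segment genes mafba and mafbb rose by 0.40 and 0.85. The more posterior Hox genes of the list, hoxb4a, hoxd4a and hoxa3a, fell by 0.84, 0.68 and 0.70. Midbrain boundary genes included spry4, pax5, wnt1, her5 and en1b on the higher side, by 0.32 to 0.85. On the lower side tfap2e had the largest fall of the list (log2 change -0.70, limma adjusted p = 0.0012). The tal2 gene followed it (log2 change -0.68, adjusted p = 0.0023). The Meis cofactor genes meis1a, meis2a, meis2b and meis3 were lower by 0.26 to 0.46. The list counts were 16 higher and 12 lower of 49.

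Peptide hormones and their processing genes had 11 lower and 6 higher of 32, with a median of -0.31. Somatostatin restrains hormone release in brain and pancreatic islets. The sst2 gene had 2.13, 2.9, 3.23 and 2.52 FPKM in the DMSO libraries and 0.331, 0, 0.0801 and 0 FPKM in the GW9662 libraries. It was not detected in 2 of the GW9662 libraries, and the fall was -2.43 ± 0.20 (log2, SE; adjusted p = 8.9e-07). The glucagon gene gcgb, of islet alpha cells, stands in the endoderm list and not in this one. It had 1.36, 2.22, 2.81 and 1.41 FPKM in the DMSO libraries and 0.1, 0.417, 0 and 0.315 FPKM in the GW9662 libraries. Its groups were separate, -1.79 ± 0.23 (log2, SE; adjusted p = 5.6e-05). The insulin gene insb went from 0.685 ± 0.155 to 1.26 ± 0.345 FPKM (SD, n = 4) and was called higher (log2 change 0.56, adjusted p = 0.043). That call held in leave-one-out fits only without DMSO replicate 4 or GW9662 replicate 2, and limma adjusted p reached 0.128 without GW9662 replicate 1. It was also lost with voom on recovered fragments (adjusted p = 0.06) and with no filter on low values (adjusted p = 0.0728). Other falls were sst1.2 by 1.75, the heart natriuretic peptide gene nppa by 1.29, the gastrin-releasing peptide gene grp by 1.18 and the granule genes chga and cpe by 0.48 and 0.50. The thyrotropin-releasing hormone gene trh rose from 2.96 ± 0.321 to 6.37 ± 0.409 FPKM (SD, n = 4) (log2 change 0.99, adjusted p = 2.4e-05). The low level of sst2 and gcgb, under 4 FPKM in every library, limits their precision.

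**Figure D4:**
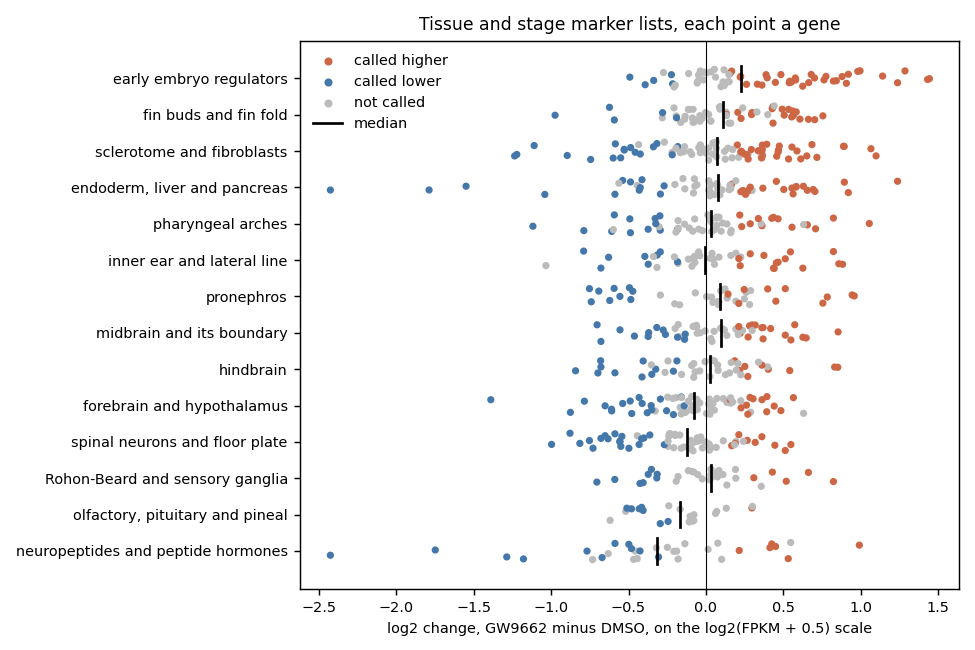
log2 change of each tested member (points, coloured by call) of 14 tissue and stage lists, GW9662 minus DMSO on the log2(FPKM + 0.5) scale, with the list median as a black line. The early embryo regulators have a median of 0.23, and neuropeptides and peptide hormones one of -0.31, reaching -2.43 for sst2.

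Mesoderm and endoderm markers went both ways. Of 76 sclerotome and fibroblast genes, 29 were higher and 17 lower. The elastic fibre genes efemp2a and efemp2b (fibulin-4) rose, efemp2b with 19.7, 20.6, 18 and 20.6 FPKM in the DMSO libraries and 42.6, 42.9, 42 and 43.8 FPKM in the GW9662 libraries. Its groups were apart by 1.10 ± 0.05 (log2, SE; adjusted p = 1.6e-09). The somite gene tcf15 rose by 0.89 (log2) and the skeletal progenitor gene prrx1b fell from 8.46 ± 0.542 to 3.66 ± 0.473 FPKM (SD, n = 4) (log2 change -1.11, adjusted p = 8.4e-07). Fin bud and fin fold genes had 20 higher and 5 lower of 58, sall4 rising by 0.76 and the basement membrane anchor gene col17a1a falling by 0.97. In the pronephros, the embryonic kidney, 10 were higher and 9 lower of 38, an order that turned to 8 and 9 on the TPM scale. The shares were 26.3% and 23.7%, beside 18.9% and 17.1% of all genes. The distal salt carrier genes slc12a3 and slc12a1 rose by 0.96 and 0.95, while the early kidney factor gene lhx1a, the endocytic adaptor gene dab2 and the glomerular factor gene wt1a fell by 0.75, 0.74 and 0.56. In the endoderm list 21 were higher and 12 lower of 60, gata6 rising from 11.9 ± 0.812 to 23 ± 0.751 FPKM (SD, n = 4) (log2 change 0.92, adjusted p = 2.7e-08). Among changes of at least 2-fold, 1 was higher and 4 were lower in that list. Its islet genes sst2 and gcgb, described above, had log2 changes of -2.43 and -1.79. Pharyngeal arch genes were even, 13 higher and 12 lower of 53, or 24.5% and 22.6% beside 18.9% and 17.1% of all genes. The endothelin receptor gene ednrab rose by 1.06 (log2) and the cartilage factor gene alx1 fell by 1.12 (log2).

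Grouping by annotation gave a wider view. Among transcription factor families of the deposited annotation, TF_bZIP genes, the family of Fos, Jun and ATF factors, had 22 higher and 3 lower of 42 and a median log2 change of 0.32. The bHLH family had 20 higher and 33 lower of 93, and the HMG-box family 3 higher and 17 lower of 51. Homeobox genes had 48 higher and 56 lower of 195, or 24.6% and 28.7% beside 18.9% and 17.1% of all genes. The largest family, zf-C2H2 zinc fingers, had 16.2% of 554 genes called, below the 36% over all genes. By shared symbol, cytochrome P450 genes (cyp) had 67.6% of 37 called and solute carriers (slc) 56.7% of 238, of which 92 were higher and 43 lower. RNA polymerase subunit genes (polr) had 8 higher and 0 lower of 26, or 30.8% higher beside 18.9% of all genes. Mitochondrial ribosome small-subunit genes (mrps) and cytochrome oxidase genes (cox) had 0 higher and 8 and 7 lower, of 24 and 22. These are 33.3% and 31.8% lower, beside 17.1% of all genes. For polr, mrps and cox alike, the share called in either direction was below the 36% over all genes. Cytoplasmic ribosomal protein genes were mostly not called, 1 of 42 for rpl and 2 of 37 for rps. By chromosome the share called ran from 28.4% on chromosome 22 to 40.9% on chromosome 14, beside the 36% over all genes.

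**Figure D5:**
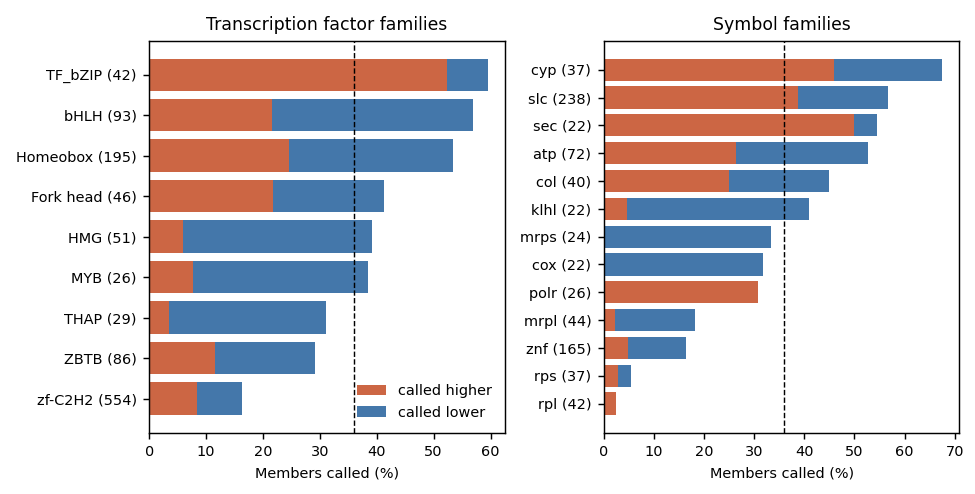
Share of tested members called higher or lower in GW9662 for transcription factor families of the deposited annotation (left) and for genes that share a symbol stem (right), with the number tested in brackets and the 36% over all genes as a dashed line. TF_bZIP genes were mostly higher, and ribosomal protein genes (rpl, rps) had few calls.

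Levels in the rosiglitazone libraries set these values beside a second exposure that shares the DMSO controls. The second zgc:92066 (ENSDARG00000116586) averaged 5.32 FPKM there and BX511021.1 1.24 FPKM, and GW9662 was higher than rosiglitazone for both (limma adjusted p of 1.7e-09 and 5.5e-10). irg1l averaged 3 FPKM, fosl1a 0.893, mmp9 1.3 and arf4b 0.208 FPKM with rosiglitazone, each below every GW9662 library. Against DMSO, rosiglitazone was also called higher for the second zgc:92066 (log2 change 1.43, limma adjusted p = 0.00093) and irg1l (1.13, adjusted p = 5.1e-05). For BX511021.1, fosl1a, mmp9 and arf4b it was not called (adjusted p of 0.16, 0.073, 0.17 and 0.63). Rosiglitazone also raised anpepb and tcnbb, by 1.16 and 1.63 (log2), and uox by 2.24, beside 1.58 with GW9662. Some markers had rosiglitazone means near the GW9662 means. cdx4 averaged 22 FPKM against 22.5 FPKM, a difference that did not pass the test (adjusted p = 0.88), and egr2b 8.49 against 7.83 FPKM (adjusted p = 0.43). For grp, which fell with GW9662, the rosiglitazone mean was 1.17 FPKM and the GW9662 mean 1.27 FPKM (adjusted p = 0.68).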

How the data were processed

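RNA sequencing libraries of whole zebrafish embryos were analysed from the FPKM table as deposited by the authors, with 4 DMSO, 4 GW9662 and 4 rosiglitazone libraries. Reads were aligned with HISAT2 2.0.5 and counted with featureCounts 1.5.0-p3, per the submitters' processing notes; no genome build is stated there. The labels describe library kits with and without strand marking, so overlapping and antisense genes are uncertain. FPKM multiplied by gene length gave whole fragments for 100% of values above 0 (tolerance 0.001), from which depth was taken. Limma 3.58.1 in R 4.3.3, with a mean trend, was fitted to log2(FPKM + 0.5) over all 12 libraries and 14433 genes; fold changes on this scale understate those of low genes. P-values are two-sided.

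Genes were named by rule: the 12 largest rises and falls with a mean of at least 5 FPKM and a proper symbol (clone names and si: or zgc: names were left out of this part of the rule), and up to 2 each way per list with at least 1 FPKM, in each case called and not overlapping between groups. Among the first kind, the heat shock, redox, crystallin, parvalbumin and apolipoprotein genes are not described here. Other genes of a list are given as further examples of its calls, and genes in no list, or said to be chosen after their values were seen, follow no rule. The members and lists were chosen with earlier results of these data known. Of 3050 list symbols, 2815 matched a gene in the table, giving 2020 distinct tested genes in 46 lists, of which 139 stand in more than 1. Of 19 symbols that had turned into dates, 17 were restored. The fit did not pair libraries by replicate number. Correlations of same-numbered deviations were -0.0502, 0.00301, 0.228 and 0.216. Those of differently numbered libraries ran from -0.261 to 0.085. The values for replicates 3 and 4 were the highest of all pairs, so whether the numbers pair libraries is not settled. Some items are not reported here. The fit was checked on simulated data. Alternatives were other pseudocounts, filters, scalings and fits, and leaving out each library.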

Additional observations from a re-analysis of the deposited data

Results flagged for a closer look

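Each group of 4 libraries was checked for a highest or lowest library whose gap to its nearest neighbour takes most of the group's range (Dixon's test at the 95% level). Of 419 groups checked for genes named in the report, 22 (5.25%) were past it, and chance gives about 1 in 20 groups.

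In the DMSO group, replicate 3 stood apart for alas1 at 59.01 FPKM above 51.26 to 52 FPKM in the other libraries, junbb at 16.92 below 20.62 to 21.34, hoxb4a at 25.05 above 22.02 to 22.23, pnp5b at 7.318 above 5.15 to 5.514 and vent at 1.508 above 1.129 to 1.17 FPKM. Replicate 1 of that group stood apart for tdgf1 at 7.512 above 6.211 to 6.427 and mafbb at 0.9624 below 1.492 to 1.55 FPKM. DMSO replicate 4 did so for acer1 at 3.82 above 2.698 to 2.811 FPKM, and DMSO replicate 2 for sat1a.1 at 4.654 below 6.537 to 6.632 FPKM.

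In the GW9662 group, replicate 4 stood apart for atic at 125.8 FPKM above 116.4 to 117.6 FPKM in the others, sqor at 27.18 above 23.18 to 23.57, mafba at 17.61 above 14.03 to 14.53, en1b at 17.39 above 15.94 to 16.1, slc6a9 at 6.754 below 7.617 to 7.766 and six6b at 2.193 below 2.833 to 2.942 FPKM. GW9662 replicate 1 did so for bmi1a at 33.87 above 30.88 to 31.39, mmp9 at 8.168 above 7.299 to 7.393, nppa at 0.8046 above 0.2658 to 0.3061 and duox2 at 0.3508 below 0.758 to 0.7906 FPKM. Replicate 3 was below the others for odc1, at 141.4 against 149.4 to 149.8, and for igfbp1b, at 1.329 against 1.95 to 2.057 FPKM. Replicate 2 was below them for gad2, at 0.7954 against 0.9333 to 0.9557 FPKM. When the library concerned was left out, sat1a.1 passed the test, which it did not with all libraries (adjusted p = 0.0167), and the other genes kept their call.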

How the results depend on the processing

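The count of genes called higher, 2735, ran from 2380 to 2575 when 1 library was left out at a time, and the count called lower, 2461, from 2097 to 2399. Over the other alternatives the counts ran from 2155 to 2993 and from 1695 to 3001, all within 1.5 times the reported counts. No gene called here was called in the opposite direction in any of the 19 alternatives. Scalings moved the median log2 change by at most 0.03, and the share of calls that were higher, 52.6%, to 47.1% on the TPM scale and 45.2% with voom weights on recovered fragments. With a replicate block fitted to the 8 DMSO and GW9662 libraries, 2993 genes were higher and 2599 lower, and 390 of the reported calls did not pass. Without the block the same 8 libraries gave 2830 higher and 2549 lower.

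For 210 of the genes named in the report, 23 of 3937 refitted values no longer passed, 2 newly passed (sat1a.1 and sat2b, each without 1 DMSO library) and 0 turned sign. Those lost belong to arid5b, egr1, fech and insb, whose highest adjusted p, each without 1 library, was 0.0672, 0.0916, 0.0812 and 0.128. The arid5b call was also lost on the TPM scale (0.0511), the fech call with no filter on low values (0.0521) and the insb call with that setting (0.0728) and with voom weights (0.06). The order of higher against lower counts was the same in all 19 alternatives for 35 of the 46 lists. The others named here were the hindbrain (11 and 11 in the fit of the DMSO and GW9662 libraries alone), midbrain boundary (13 and 13 with voom weights), pharyngeal arch, pronephros (8 and 9 on the TPM scale), polyamine, folate, actin and peptide hormone lists, the last with 2 higher and 1 lower among genes of at least 5 FPKM. Which copy of a ferritin-like or histone gene changed cannot be settled by these alternatives, since the assignment of shared fragments was the authors'. Genes with few fragments in DMSO, such as arf4b, have folds that depend on the pseudocount: arf4b rose by 4.64 on the log2 scale, by 5.66 with a pseudocount of 0.1 and by 3.96 with 1.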
